A study of Rattus norvegicus with 241 samples.

Results

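The cells described here are the macrophage-gate cells of whole rat mammary glands. They were 3996 of 103524 cells, or 3.86%, from 9 rats. The cells were chosen by their measured UMI counts. A cell entered the gate with at least 3 UMIs (unique molecular identifiers, each standing for 1 captured RNA molecule) summed over C1QA, C1QB, C1QC, CD68 and CSF1R, and with 0 UMIs over CD3E, CD3D and CD79B, which mark T and B cells. All rats were young virgin female Sprague Dawley (SD) rats, an outbred stock with no engineered allele in the labels. They received TGFBRi (LY2157299, a small molecule that blocks the kinase of the TGFβ type I receptor) at 75 mg/kg, or vehicle alone, by oral gavage in 2 doses per day for 10 days from about 24 days of age. Glands were taken when dosing stopped, at day 0, from 6 TGFBRi-treated and 3 vehicle rats, with 1 unsorted single-cell library per rat. The dosing reached the whole animal, so that no cell type was treated alone. Bulk RNA-seq of CD45+ leukocytes sorted from glands of SD rats (8 samples, 4 per group, same dosing and day) served as samples that the gate had not used. Their labels carry other animal names than those of the whole glands and do not say whether the rats were the same.

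Macrophages are phagocytes that clear dying cells, milk residue and debris, recycle iron and lipid, and send chemokines that call in other leukocytes. In the mammary gland they line ducts and fill the stroma, and they are needed for branching. C1QA, C1QB and C1QC encode the chains of complement C1q, which resident macrophages secrete, CSF1R is the receptor for their survival factor and CD68 is a protein of their lysosomes. TGFβ is known as a restraining signal for macrophages in many tissues.

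The gate was made from measured values, so levels of its 5 genes are given as a description. Each rat gave 278 to 797 gated cells with a median of 3624 to 5743 UMIs per cell. The rule sat on a gradual edge, since 507 gated cells held exactly 3 gate UMIs, 827 cells just outside held 2, and 304 further cells were left out for a T or B cell gene. Of the gate genes, C1QA stood at 1686, 1771 and 3462 CPM (UMIs of a gene per 1000000 UMIs of the same cells, here scaled by TMM) in vehicle rats 1, 2 and 4 and at 1263 to 2206 CPM in TGFBRi rats, the highest being vehicle rat 4. Markers that the rule did not use were high. TYROBP, an adaptor of myeloid receptors, reached 1758 CPM (not scaled by TMM) over all gated cells of vehicle rats and 2249 CPM over those of TGFBRi rats, against 44.1 and 45.9 CPM in B cells of the same rats. CD163, a scavenger receptor of tissue macrophages, reached 180 and 94.1 CPM against 1.45 and 0.578 CPM in B cells. These values pool the cells of a group, and vehicle rat 4 gave 797 of the 1546 gated cells of vehicle rats. For these 2 genes, B cells are all cells with a CD79B UMI.

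The label macrophage did not hold for every gated cell. C1q UMIs numbered 10 or more in 1910 gated cells (47.8%), called C1q-high here, 1 to 9 in 603 cells (15.1%) and 0 in 1483 cells (37.1%). Clustering gave 19 clusters. Cluster 1, with 661 cells, was LYVE1-type resident macrophage-like, with all 13 detected markers of that list at least 2-fold above other gated cells and CD163, F13A1 and CCL24 among its 10 leading genes, beside the globin genes HBB and HBA-A1. Of its cells, 293 came from vehicle rat 4. Cluster 1 held a mean of 3.26 CD163 UMIs per cell, against 0.248 in the other gated cells. The CD163 level above therefore does not describe the gate as a whole. Cluster 3, with 520 cells, was led by the chemokine genes CXCL3, CCL12 and CCL7. Cluster 4, with 405 cells, was led by MMP12, SPP1 and ACP5. Cluster 2, with 537 cells and a median of 0 C1q UMIs, was led by DEFB14, FPR2 and G0S2, and held 4 of 9 detected monocyte markers at 2-fold or more. Cluster 5, with 300 cells, was monocyte-like (FCNB, VCAN, PLAC8 and HP among its leading genes, with the neutrophil gene S100A8). Clusters 9 and 13, with 163 and 85 cells, were dendritic cell-like, led by genes such as CLEC9A in the former and CCR7 and FSCN1 in the latter. Clusters 10, 11, 12, 17 and 19, with 21 to 127 cells each, had leading genes of endothelium and pericytes, fibroblasts, milk-producing epithelium, keratin-rich epithelium and cytotoxic lymphocytes. The gate was therefore named by its rule, and results are also given for the C1q-high cells alone.

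**Figure D1:**
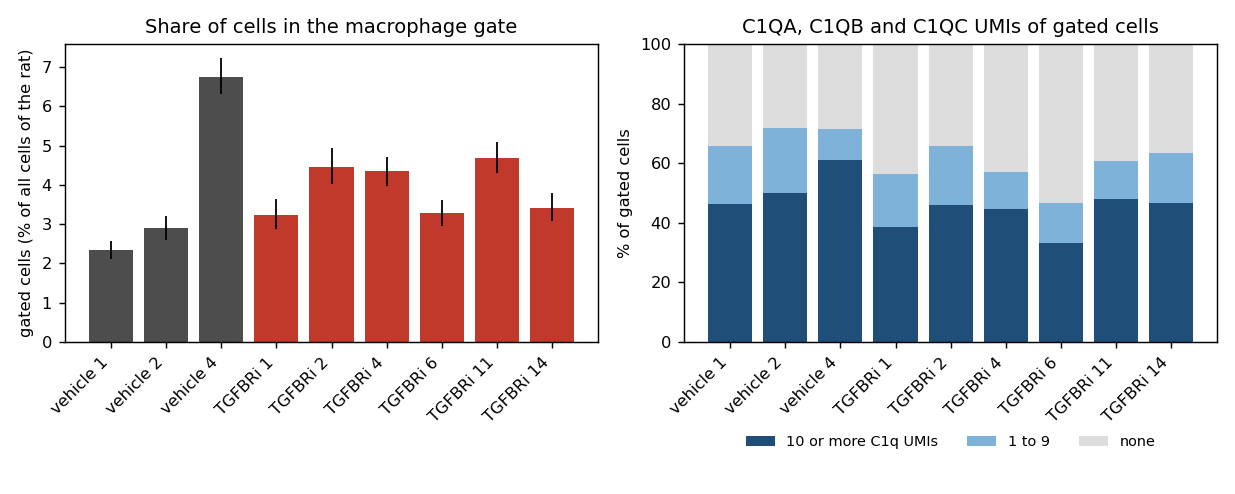
Left, gated cells as a share of all cells of each rat (bars, percent; lines, 95% Clopper-Pearson interval). Right, gated cells of each rat split by their C1q UMIs. Shares lie between 2.34 and 6.76%, with vehicle rat 4 the highest, and cells without C1q take 28.2 to 34.4% in vehicle and 34.4 to 53.5% in TGFBRi rats.

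The share of gated cells among all cells did not differ beyond the spread between rats. It was 2.34% in vehicle rat 1, 2.89% in vehicle rat 2 and 6.76% in vehicle rat 4, and it lay between 3.24 and 4.68% in the TGFBRi rats. The means were 4.00% ± 2.41 (SD, n = 3) and 3.90% ± 0.658 (SD, n = 6), with p = 0.929 by an exact two-sided permutation test over 84 arrangements, the smallest possible value being 0.0238. The highest and the lowest rat were both vehicle rats. Vehicle rat 4 stood apart in several ways. It held 419 B cells against 1797 to 2890 in the other 8 rats, its gated cells made up 24.4% of cells with a PTPRC UMI against 4.79 to 7.05%, and 21.96% of its gated cells carried 5 or more fibroblast UMIs against 3.13 to 9.21%. Results are therefore also given without it.

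Shares of gated cells with UMIs of 6 marker lists were compared after each cell was thinned to 1000 UMIs, with at least 2 UMIs of the list required. The monocyte list was met by 66.4 to 75.1% of cells in vehicle and 75.0 to 85.2% in TGFBRi rats, 6.83 percentage points more on average. Its p was 0.0476 by the exact permutation test (two-sided) and 0.143 after Benjamini-Hochberg adjustment over the 6 lists. The monocyte list holds LYZ2, which is also in the macrophage identity list, and most gated cells met it. Its share therefore does not count monocytes. The lipid-handling list was met by 97.9 to 100% in vehicle and 94.6 to 97.8% in TGFBRi rats (exact permutation p = 0.0238, adjusted p = 0.143). Nearly all gated cells met that list, so that it sets no subset apart. The LYVE1-type, MHC class II, G2/M and dendritic cell lists gave adjusted p between 0.286 and 0.690 by the same exact test. No list passed an adjusted p of 0.05. A list at 0.0238, the smallest possible value, could not pass alone after adjustment over 6 lists. The share of gated cells without C1q, which uses gate genes and so has no test, was 34.4, 28.2 and 28.5% in vehicle rats 1, 2 and 4 and 34.4 to 53.5% in TGFBRi rats.

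Expression in the gated cells was compared on UMIs summed per rat, and CPM of single rats are scaled by TMM, a method that sets libraries level on most genes. Of 13222 genes tested, 569 rose and 708 fell with TGFBRi at an adjusted p of 0.1 or less, which is 9.66% of genes called, 4.30% raised and 5.35% lowered. Those are the shares against which each list below is read. They include genes with few UMIs. With a stricter filter on low counts (filterByExpr), 690 genes rose and 789 fell of 9444, a larger share. The groups did not overlap in CPM for 12.5% of genes. Among 7570 genes with a mean of 20 or more UMIs per rat, 5.80% were raised and 6.46% lowered with no overlap. Scaling to total UMIs in place of TMM moved the median of all genes from 0.00 to 0.20 on the log2 scale, and 1421 of 1813 called genes rose, so that 78.4% of calls were raised against 44.6% in the reported fit. TMM factors were 0.840 to 0.993 in vehicle and 1.01 to 1.08 in TGFBRi rats. Among the called list members and the largest changes, the genes for which the scaling was compared, none changed direction with it. Without vehicle rat 4, 1101 genes rose and 1147 fell, of which 1077 were also called, in the same direction, with all rats. Of the gated cells, 78.6 to 88.2% in each rat carried a UMI of the epithelium, fibroblast, endothelium, B cell or T and NK cell lists. In the 637 cells without any (200 of vehicle, 437 of TGFBRi rats), 4 genes rose and 71 fell of 7693 tested. Of these 75, 68 were also called over the whole gate. Those lists also hold CD8A, CD7 and KDR, which were among the 10 leading genes of clusters 2, 8 and 9. The p-values measure the spread between rats.

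The 12 largest falls included genes of macrophage cluster 4 and genes spread over several clusters. SPP1, which encodes the secreted phosphoprotein osteopontin, stood at 409.6, 391.96 and 255 CPM in vehicle rats 1, 2 and 4, and at a lowest of 33.5, a median of 42.2 and a highest of 57.7 CPM in TGFBRi rats. Every TGFBRi rat was below every vehicle rat. The fall was 7.97-fold (log2 change −2.99 ± 0.19 SE, adjusted p = 4.2e-05), and 59.6% of the SPP1 UMIs of gated cells lay in cluster 4 and 20.48% in cluster 3. HSPB1, a small heat shock protein, fell from 419, 382 and 1156 CPM to 71.1 to 122 CPM (log2 change −2.81 ± 0.31). Its UMIs were spread widely, with 34.1% in cluster 1 and 22.7% in the endothelial and pericyte cluster. CD207, a C-type lectin, fell from 37.4, 51.8 and 9.05 CPM to 0.299 to 6.82 CPM (log2 change −3.60 ± 0.67, adjusted p = 0.012), with 68.1% of its UMIs in cluster 4.

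Several of the other large falls were in genes carried by cells of other types in the gate. MMP3, a matrix metalloproteinase, was counted 43, 158 and 26 times in vehicle rats 1, 2 and 4 and 2 times in the 6 TGFBRi rats together, so that no ratio is given. Of its UMIs, 75.98% lay in the fibroblast cluster. MGP (matrix Gla protein) and IL1RL1 (the IL-33 receptor) fell by 2.25 and 2.46 on the log2 scale, with 71.01 and 90.3% of their UMIs in the same cluster. None of 9 tested fibroblast genes passed the threshold, though the summed list ranged from 2588 to 7582 CPM in vehicle and from 162 to 4476 CPM in TGFBRi rats, and its median log2 change was −0.77. The part of fibroblast RNA in these 3 falls was not tested. In the C1q-high cells IL1RL1 gave −0.15, and 0.19 without vehicle rat 4. CXCL6, ALDH1A3, PTX3, AKR1B8, CXCL3 and GCLM completed the 12 largest falls, with log2 changes between −4.38 and −2.29.

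**Figure D2:**
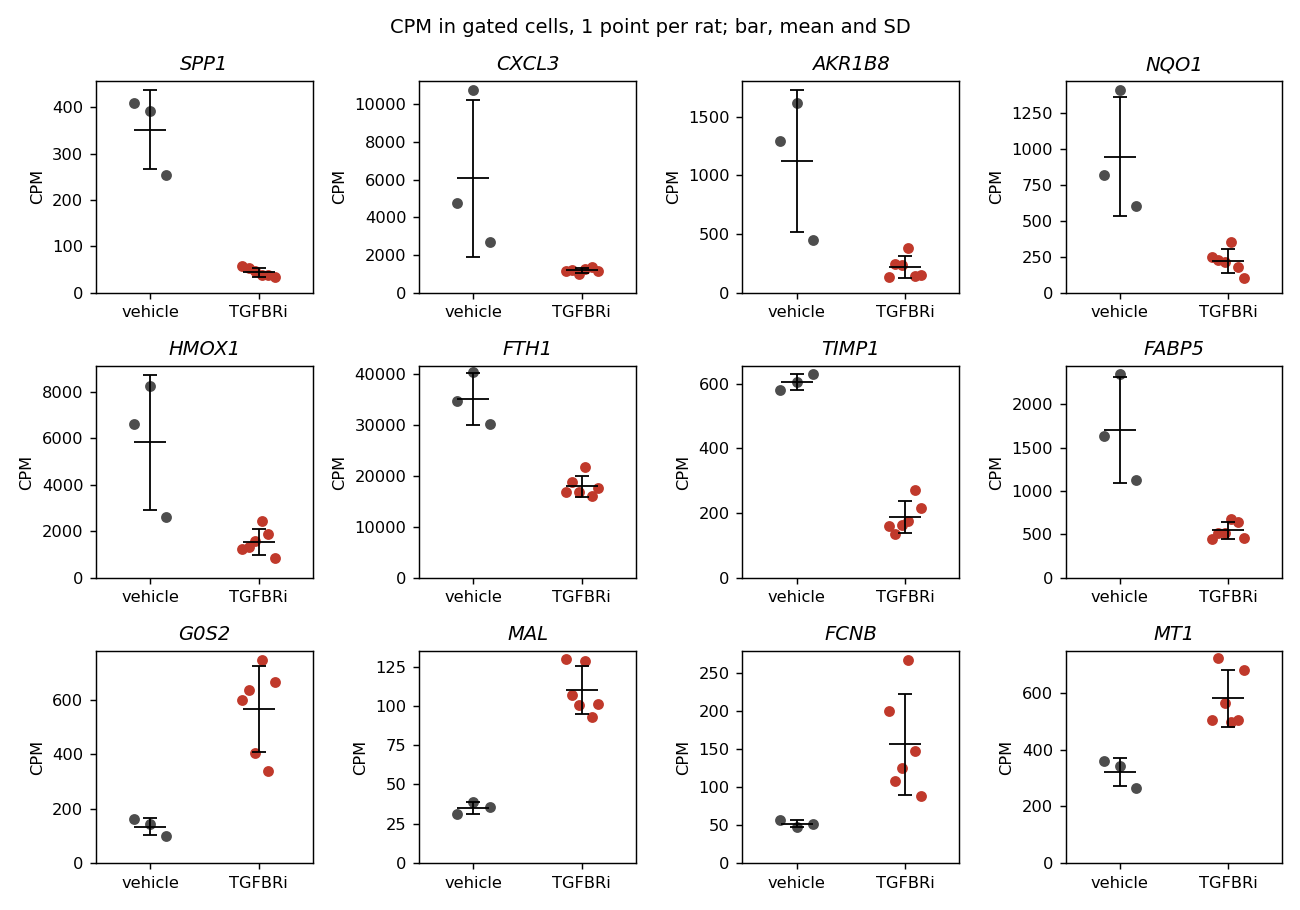
CPM in gated cells for 12 genes, with 1 point per rat and bars for the mean and SD (3 vehicle, 6 TGFBRi rats). For SPP1 the vehicle rats lie between 255 and 410 CPM and the TGFBRi rats between 33.5 and 57.7 CPM, and no panel shows an overlap between the groups. The panels were picked from called genes, and the largest changes were named only where the groups did not overlap. Called genes with an overlap, such as TREM2 and MMP12, are not shown.

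Of 16 tested members of the list of metallothionein, redox and iron genes, 9 fell and 3 rose, with a median log2 change of −0.78 against 0.00 over all genes. NQO1, a quinone reductase, stood at 822, 1408 and 606 CPM in the vehicle rats and at 103.5 to 353 CPM in TGFBRi rats (log2 change −2.09 ± 0.32, adjusted p = 0.0050). HMOX1, which breaks down heme, stood at 6605, 8235 and 2623 CPM against 840 to 2457 CPM (log2 change −1.91 ± 0.34, adjusted p = 0.0095). Both ranges were separate, for HMOX1 only by a narrow margin at vehicle rat 4. FTH1, the heavy chain of the iron store ferritin, made up 30189 to 40303 CPM in vehicle and 15998 to 21702 CPM in TGFBRi rats, a 1.95-fold fall, and FTL1, its light chain, fell 1.97-fold. GCLM, of glutathione synthesis, fell by 2.29 and PRDX1, a peroxidase, by 1.42 on the log2 scale. TXNRD1, a thioredoxin reductase, fell 2.46-fold, with an overlap at vehicle rat 4. AKR1B8, an aldo-keto reductase outside the list, fell from 1295, 1620 and 447 CPM to 132 to 381 CPM. MT1, a metallothionein, rose from 360, 342 and 266 CPM to 500 to 726 CPM (log2 change 0.85 ± 0.16, adjusted p = 0.014), and GPX1 and BLVRA rose too. Summed over the list, vehicle rats held 47658 to 64105 CPM and TGFBRi rats 26271 to 33280.3 CPM.

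Transcription factors of the NRF2 family bind a short motif, the antioxidant response element, in promoters of genes of this kind. Promoters (250 bases before the start, RefSeq, GRCr8) were found for 6 of the 9 redox members that fell, and 3 of the 6, GCLM, PRDX1 and TXNRD1, held the core TGACNNNGC on either strand, as did 10.1% of all 33469 promoters. The unmatched genes were FTH1, FTL1 and HMOX1. BLVRA, MT1 and MT2A, which did not fall, held it as well, so that 6 of 14 list members with a promoter did. Members were picked as metallothionein, redox and iron genes, so that the share over all promoters is no test of the fall. An 80-base window with the core in capitals is shown for each of the 3, at chr2:213031933-213032012 on the plus strand for GCLM, chr5:135383741-135383820 on the plus strand for PRDX1 and chr7:22755933-22756012 on the minus strand for TXNRD1, each read 5′ to 3′ along the gene. The core begins 172, 135 and 78 bases before the start.
GCLM: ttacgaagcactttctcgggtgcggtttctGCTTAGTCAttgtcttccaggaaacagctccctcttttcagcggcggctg
PRDX1: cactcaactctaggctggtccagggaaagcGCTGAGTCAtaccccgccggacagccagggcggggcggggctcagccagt
TXNRD1: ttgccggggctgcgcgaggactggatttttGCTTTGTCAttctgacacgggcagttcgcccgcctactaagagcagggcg

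Of 17 tested members of the list of lipid-handling macrophage genes, 9 fell, 8 were not called and none rose, with a median log2 change of −0.65. Beside SPP1 they were FABP5, PLIN2, LGALS3, CTSB, CTSD, NPC2, GPNMB and TREM2. FABP5, a fatty acid carrier, stood at 1642, 2347 and 1133 CPM in vehicle and 450 to 682 CPM in TGFBRi rats (log2 change −1.64 ± 0.20, adjusted p = 0.0021). CTSB, a lysosomal protease, fell from 2591, 3191 and 3481 CPM to 1568 to 2062 CPM, a 1.71-fold change. The groups overlapped for TREM2, GPNMB, LGALS3 and PLIN2.

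Of 26 tested members of the list of matrix remodelling genes, 13 fell and 1, ADAM8, rose, with a median log2 change of −0.76. SPP1, CTSB and LGALS3 are in this list and in the lipid-handling list, so that the counts of these lists are not separate. The matrix and lipid-handling lists had similar counts in B and T cells of the same rats, given with the other cells of the glands. TIMP1, an inhibitor of metalloproteinases, stood at 582, 605 and 630 CPM in vehicle and 136 to 272 CPM in TGFBRi rats (log2 change −1.69 ± 0.18, adjusted p = 0.0016). Of its UMIs, 36.7% lay in the fibroblast cluster and 12.4% in the milk-producing cluster. MMP12, the macrophage elastase, fell from 932, 669 and 318 CPM to 150 to 405 CPM with an overlap at vehicle rat 4 (log2 change −1.18 ± 0.33), and 79.4% of its UMIs were in cluster 4. CTSL, another lysosomal protease, fell 2.62-fold with no overlap.

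Over the whole gate, 9 of 29 tested members of the list of inflammatory cytokines and NFκB genes fell, 5 rose and 15 were not called. Several of those that fell encode chemokines that recruit neutrophils or monocytes. CXCL3 stood at 4780, 10746 and 2696 CPM in the vehicle rats and at 991 to 1371 CPM in TGFBRi rats (log2 change −2.35 ± 0.30, adjusted p = 0.0022), with 46.4% of its UMIs in cluster 3. CXCL1 fell 2.46-fold, from 9263 to 13658 CPM in vehicle to 3788 to 4764 CPM in TGFBRi rats, and CXCL2 fell 2.10-fold. CCL7, CCL2, IL6, SOD2 and IL1RN fell too, as did CCL4, whose groups overlapped. CCL4 and CCL7 were lowest in vehicle rat 1 among the vehicle rats, and CXCL3 was lowest in vehicle rat 4. NFKBIA, the inhibitor that NFκB itself induces, rose by 0.34 ± 0.10 on the log2 scale (2181 to 2398 CPM against 2699 to 3254 CPM, adjusted p = 0.070). BCL3 rose by 1.33, TNFAIP3 by 0.79, CD83 by 0.74 and NFKBIZ by 0.39 on that scale. The calls of NFKBIA, NFKBIZ and TNFAIP3 were lost without most of the rats, each left out in turn, with a gate of 5 UMIs and in C1q-high cells, whereas that of BCL3 was kept without any 1 rat. The counts ran the opposite way in cells without C1q. In the 1910 C1q-high cells, 11 of the 29 fell and 1, BCL3, rose, with a median log2 change of −0.37, where 2.89% of all genes were lowered and 0.817% raised. In the 1483 cells without C1q, 11 of the 29 rose and 1, CXCL3, fell, with a median of 0.39, where 4.13% of all genes were raised and 5.38% lowered. IL1B, the inflammasome-processed cytokine, stood at 943, 1234 and 890 CPM in vehicle and 1977 to 2445 CPM in TGFBRi rats in the cells without C1q, with no overlap (log2 change 1.10, adjusted p = 0.0030). In C1q-high cells it stood at 601 to 1873 and 643 to 1177 CPM (log2 change −0.39, adjusted p = 0.55). TNFAIP3, BCL3, NLRP3 and NFKBIA were among the others that rose in cells without C1q, by 1.22, 1.38, 0.95 and 0.52 on the log2 scale. Without vehicle rat 4, 15 fell and 2 rose in C1q-high cells, and 5 fell and 10 rose in cells without C1q. The cells without C1q lay in several clusters, 515 of the 1483 in cluster 2. Pooled over the rats of a group, cluster 2 took 24.7% of those of vehicle and 39.3% of those of TGFBRi rats. In cluster 7, 75 came from vehicle rat 4 against 3 and 1 from vehicle rats 1 and 2. The makeup of this class was therefore not equal between rats or groups, and its part in these values was not tested. Both sets of cells come from the same rats, and the difference between them was not tested. GDF15, a stress-induced cytokine of the list of secreted factors, fell 3.22-fold, from 2375, 4169 and 5352 CPM to 1016 to 1348 CPM.

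NFκB factors bind κB sites, searched here as GGG, then any 2 bases, then TTTCC. Of the 9 members of that list that fell, 6 had a promoter in the table. Of these, 4 (CXCL1, CXCL2, IL1RN and IL6) held the letters on either strand, as did 435 of all 33469 promoters. Over the whole list, fallen or not, 8 of 22 members with a promoter held them. Members were picked as cytokine and NFκB genes, so that the share over all promoters is no test of the fall. CCL2, CCL4 and CXCL3 were unmatched. NFKBIA, NFKBIZ and TNFAIP3, which rose, held them too, so that genes of both directions carried the motif. The windows of CXCL1 (chr14:17479374-17479453) and CXCL2 (chr14:17467280-17467359), both GRCr8 and on the minus strand, each hold it 2 times and are shown as the chemokine genes that fell with matching letters, in capitals.
CXCL1: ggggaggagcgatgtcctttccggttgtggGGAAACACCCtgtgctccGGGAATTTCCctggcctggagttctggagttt
CXCL2: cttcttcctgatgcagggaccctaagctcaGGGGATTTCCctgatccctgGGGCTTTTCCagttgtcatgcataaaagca

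**Figure D3:**
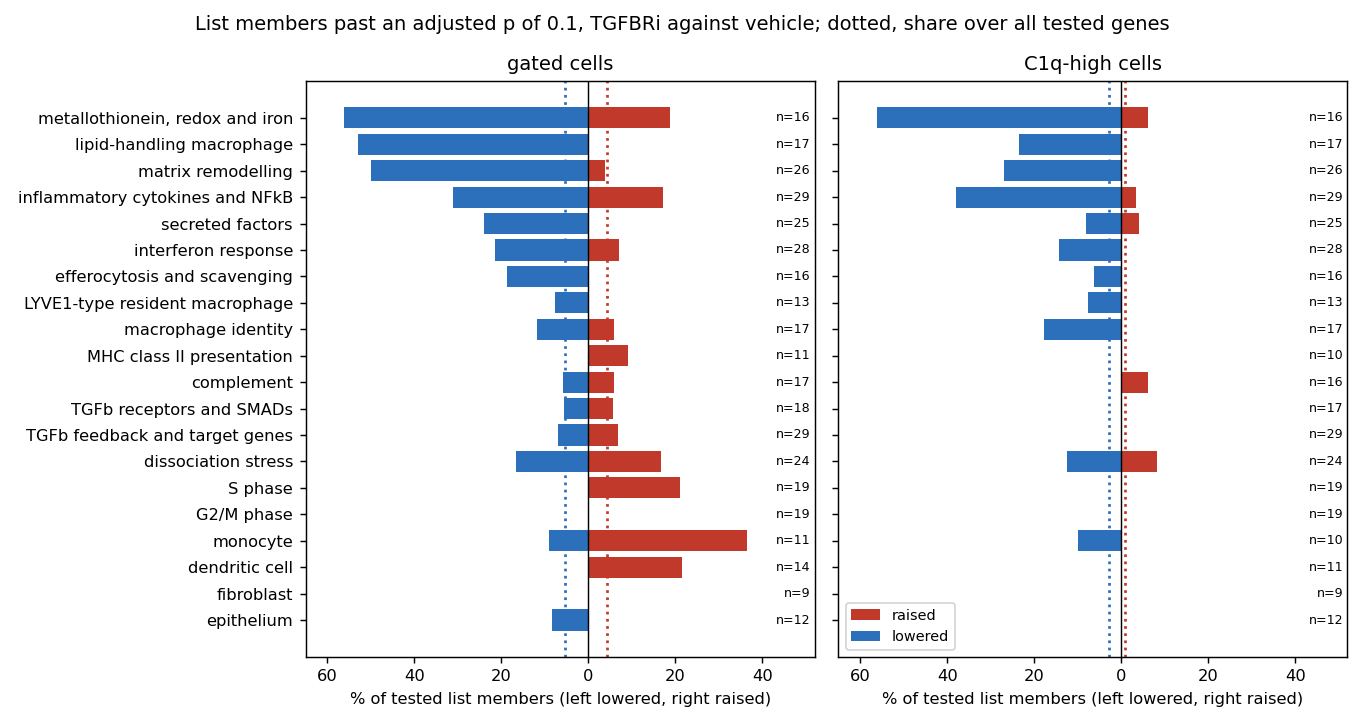
Share of tested members of 20 gene lists raised (right) or lowered (left) at an adjusted p of 0.1 or less, in all gated cells and in C1q-high cells, with n members tested. Dotted lines mark the share over all genes, 4.30% raised and 5.35% lowered in gated cells, and the redox list is lowered in 9 of 16 members in both panels.

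Interferon-induced genes gave a mixed count, with 6 of 28 tested members lowered and 2 raised. In C1q-high cells 4 were called, each of them lowered, with a median log2 change of −0.50, and in cells without C1q 1 was lowered and 3 raised, with a median of 0.41. The difference between these cells was not tested. OASL, an OAS-like gene of this list, fell from 328, 994 and 514 CPM to 109 to 256 CPM, and IFIT3 fell from 44.6, 203 and 212 CPM to 20.6 to 59.7 CPM with an overlap. LY6E rose by 0.71 on the log2 scale.

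Of 17 tested genes of macrophage identity, 3 were called, beside 9.66% of all genes. ADGRE1 (the F4/80 antigen) and MS4A7 fell by 0.81 and 1.03 on the log2 scale and FCGR3A rose. Of 13 tested LYVE1-type genes PF4 alone fell, from 829, 1807 and 1971 CPM to 374 to 675 CPM, and the list's median log2 change was −0.62 with all rats and 0.32 without vehicle rat 4, where the summed list stood at 11470 CPM against 4538 and 4531 CPM in vehicle rats 1 and 2 and 2309 to 4445 CPM in TGFBRi rats. LYVE1, a hyaluronan receptor, stood at 56.9, 99.9 and 759 CPM in the vehicle rats and 87.4 to 219 CPM in TGFBRi rats, with vehicle rat 4 above the other 8 rats. MHC class II genes had 1 of 11 tested members called (RT1-DOA, raised). Complement genes other than C1q had C3 raised and C3AR1 lowered among 17.

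In the pathway that the drug inhibits, counts of called genes are read against the 9.66% of all genes called. Of 18 tested receptors, ligands and SMADs, ACVRL1 rose and ENG fell, both TGFβ family receptors of low level here, and the median log2 change was 0.10. The type I receptor TGFBR1 was 20.1 to 32.8 CPM in vehicle and 22.1 to 37.7 CPM in TGFBRi rats. TGFB1 stood at 414 to 614 and 501 to 606 CPM (log2 change 0.09 ± 0.13). Of 29 tested feedback and target genes, 4 were called, 2 in each direction, with a median of 0.00. TSC22D1 fell by 1.19 and BHLHE40 and BCL6 rose by 0.72 and 1.12 on the log2 scale. SMAD7, the feedback inhibitor, differed by a log2 value of 0.32 ± 0.28 (adjusted p = 0.57) and TGFBI by 0.00 ± 0.26 (adjusted p = 1.00). Among 15 tested genes that depend on TGFβ in microglia, 2 were called, and HPGD fell by 1.68 on the log2 scale, with an overlap.

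The genes that rose most included several of the C1q-poor clusters 2 and 5. G0S2, an inhibitor of lipolysis, stood at 160, 143 and 97.6 CPM in vehicle and 340 to 747 CPM in TGFBRi rats (log2 change 2.08 ± 0.27, adjusted p = 0.0023), and 70.5% of its UMIs lay in cluster 2. MAL, a membrane lipid protein, stood at 31.1, 38.5 and 35.4 CPM against 92.9 to 130 CPM (log2 change 1.65 ± 0.16), with 62.8% of UMIs in cluster 2. CD8A, which rat monocytes can carry, rose from 5.23 to 13.5 CPM to 24.5 to 56.5 CPM, with 79.2% of UMIs there. FCNB, a monocyte lectin, stood at 47.1 to 56.9 CPM against 88.5 to 267 CPM (log2 change 1.59 ± 0.32), with 74.8% of UMIs in cluster 5. Of 11 tested monocyte genes, PLAC8, ITGAL, GNGT2 and FCNB rose and CLEC4E fell. NR4A1 rose by 1.16 on the log2 scale, with 62.96% of its UMIs in cluster 2. CCDC88C, ARHGAP27, DAPK2, FAM117B, LRRK2, NUP210, RT1-T24-3 and NEWGENE-2134 completed the 12 largest, with log2 changes between 1.60 and 2.19 and a highest level of 52.3 CPM in any rat. Of these, NEWGENE-2134 had 87.2% of its UMIs in cluster 6, which was left unnamed for its low UMI counts, and LRRK2 41.4% in cluster 9. In the 1483 cells without C1q, 467 genes rose and 609 fell of 11310 tested (4.13% raised, 5.38% lowered, 9.51% called). G0S2 stood at 399.5, 307 and 302 CPM there in vehicle and 659 to 1416 CPM in TGFBRi rats, with no overlap (log2 change 1.70, adjusted p = 0.0047). MAL, CD8A and FCNB rose in these cells as well, by 1.26, 1.46 and 1.27 on the log2 scale, NQO1 fell by 2.24, and SPP1 and MT1 gave −1.31 and 0.07 with adjusted p of 0.18 and 0.92. Cluster 2 held 10.7, 9.04 and 6.27% of gated cells in vehicle rats 1, 2 and 4 and 12.8 to 19.8% in TGFBRi rats. Pooled over the rats of a group, it held 8.02% of gated cells in vehicle and 16.9% in TGFBRi rats. Of those without C1q, it held 24.7 and 39.3%, pooled likewise. Genes that lead it were called between the groups, so that these shares are a description. Their part in these rises was not tested. In a pool of cells, more cells of a type and more RNA per cell cannot be told apart, and the cells without C1q were 28.2 to 34.4% of the gate in vehicle and 34.4 to 53.5% in TGFBRi rats.

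**Figure D4:**
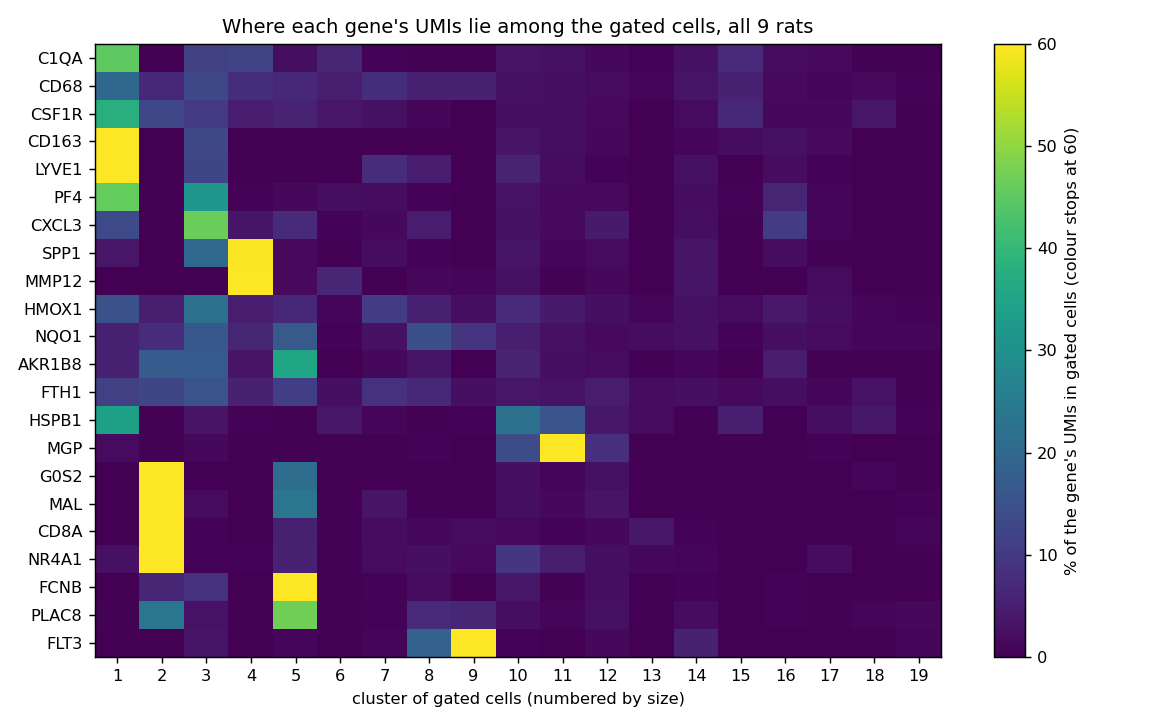
Percent of each gene's UMIs in gated cells of all 9 rats that lie in each of the 19 clusters (colour, stopping at 60). SPP1 and MMP12 lie mainly in cluster 4, G0S2, MAL and CD8A in cluster 2, FCNB in cluster 5 and MGP in the fibroblast cluster 11.

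In the 1910 C1q-high cells alone, which still included 47.2% of cluster 10, 46.7% of cluster 11, 37.6% of cluster 12 and 63.6% of cluster 17, 98 genes rose (0.817%) and 347 fell (2.89%) of 11991 tested, 3.71% called. Of the 445, 354 were called in the same direction over the whole gate. SPP1 stood at 773, 718 and 386 CPM in vehicle and 32.4 to 145 CPM in TGFBRi rats (log2 change −3.08, adjusted p = 0.0017). NQO1 stood at 573, 857 and 521 CPM against 71.8 to 155 CPM (log2 change −2.44, adjusted p = 6.5e-04). MT1 stood at 350, 311 and 246 CPM against 721 to 1264 CPM (log2 change 1.64, adjusted p = 0.0021). The groups did not overlap for these 3 genes. The redox list again had 9 of 16 members lowered, with a median log2 change of −0.94, and the cytokine list had 11 of 29 lowered, against 1 of 29 in the cells without C1q. The lipid-handling list had 4 of 17 and the matrix list, which shares members with it, 7 of 26 lowered. G0S2, MAL, CD8A and FCNB, by contrast, gave log2 changes of 0.36, −0.31, −0.74 and 0.81 with adjusted p between 0.65 and 0.88. Without vehicle rat 4, 430 genes rose and 743 fell in these cells.

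The other cells of the glands were compared in the same way. In 18356 B cells of the same rats, 19.6% of 14135 genes were called (9.49% raised, 10.1% lowered), in 13251 T cells 20.4% of 14258 (9.06% raised, 11.3% lowered), and in all cells outside the gate 32.4% of 18095. These comparisons share their rats with that of the gated cells, so that likeness among them adds no independent support. The lists that fell in gated cells had falls in these lymphocytes too. The matrix list had 12 of 25 members lowered in B cells and 17 of 26 in T cells. The lipid-handling list, which shares members with it, had 9 of 16 and 12 of 16. The redox list had 8 of 15 lowered in B cells and 9 of 15 in T cells, and the list of inflammatory cytokines and NFκB genes 11 of 28 and 12 of 28. Of 29 tested TGFβ feedback and target genes, 9 were lowered in B cells and 11 in T cells, with 1 raised in each. In gated cells, where 9.66% of all genes were called, 2 were lowered and 2 raised. The list's median log2 change was −0.34 in B cells, −0.43 in T cells and 0.00 in gated cells. Fewer gated cells than B or T cells were compared, so that these counts alone show no difference between the cells. By the interaction term against B cells, which called 1.91% of all genes, 2 of 26 matrix members, 1 of 17 lipid-handling members, 3 of 16 redox members and 6 of 29 cytokine and NFκB members differed. NQO1 fell by 3.00 in B cells and 2.92 in all other cells on the log2 scale, HMOX1 by 3.49 and 3.13, AKR1B8 by 5.88 and 4.91 and CXCL3 by 4.55 and 3.60. All other cells were pooled over cell types in each rat. In that pool 14 of 15 T and NK genes were raised and 7 of 12 epithelium genes lowered. The part of its makeup in its values was not tested. CXCL3 stood at 677, 850 and 756 CPM in B cells of vehicle rats and 16.9 to 59.3 CPM in those of TGFBRi rats, far under its level in gated cells of the same rats. MT1 gave 0.52 in B cells (adjusted p = 0.20). The epithelium list, which marks another cell type, had 9 of 12 members lowered in B cells and 10 of 12 in T cells. The endothelium list had 2 of 9 and 8 of 9 lowered, and the fibroblast list 0 of 9 and 2 of 9. No member of these lists was raised in either. The part of free RNA in the B and T cell values, and so in the contrasts with B cells, was not tested.

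The treatment effect differed between gated cells and B cells, by the interaction term, in 287 of 14989 genes (1.91%), with 159 more positive (1.06%) and 128 more negative (0.854%) in gated cells. AKR1B8 and CXCL3 fell less in gated cells, with log2 differences of 3.35 and 2.46 (adjusted p of 5.5e-04 for AKR1B8, 0.0060 for CXCL3). NFKBIA rose in gated cells (but gave 0.13 in C1q-high cells, adjusted p = 0.69) and fell by 0.64 in B cells, a difference of 0.91 (adjusted p = 8.5e-04), and DUSP1, a phosphatase that ends stress kinase signals, rose by 0.52 in gated cells and fell by 0.59 in B cells, a difference of 1.06 (adjusted p = 0.0014). GCLM, FABP5 and PRDX1 fell further in gated cells, with differences of −1.30, −1.10 and −0.65. CCL4 fell in gated cells with 0.30 in B cells, a difference of −2.21 (adjusted p = 0.048). For SPP1, NQO1, FTH1, TIMP1 and CXCL1 the difference did not pass (adjusted p between 0.24 and 0.98).

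**Figure D5:**
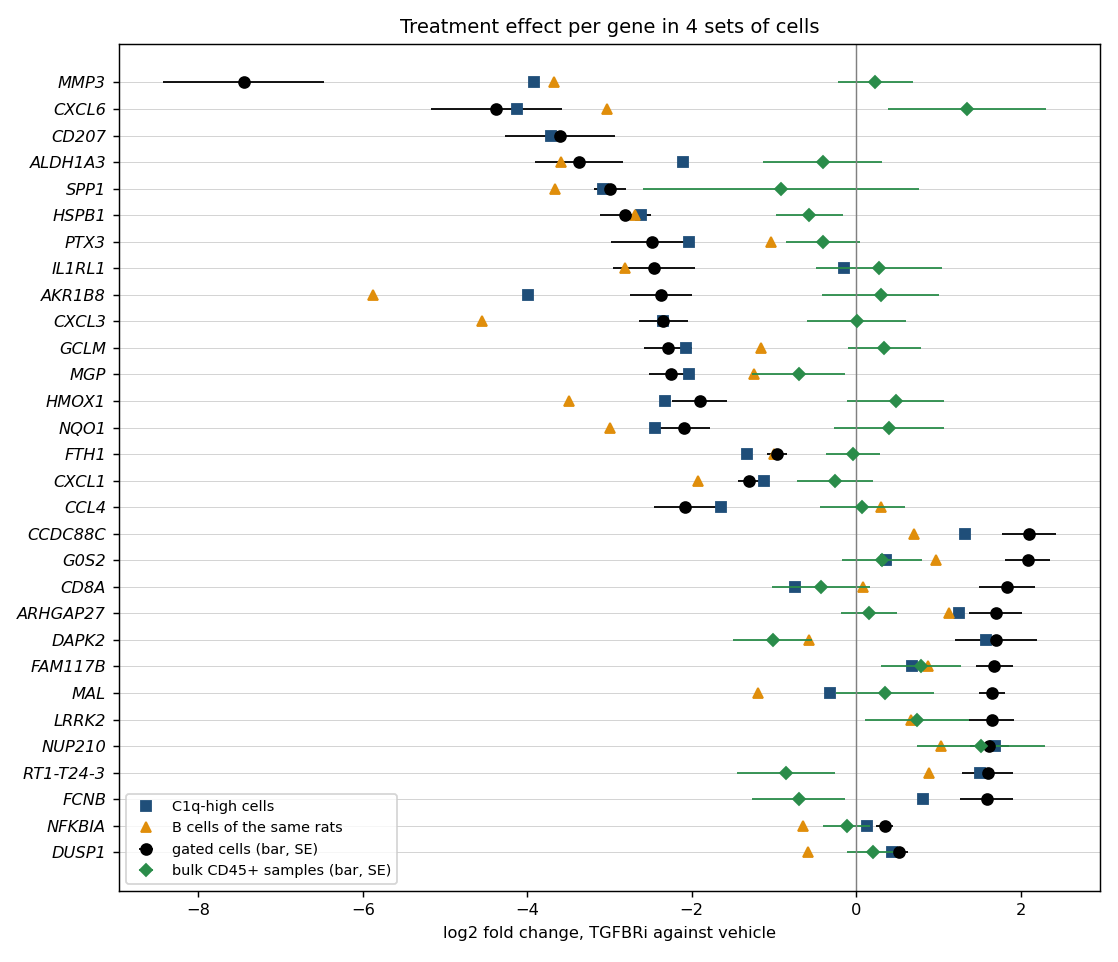
Log2 fold change of TGFBRi against vehicle for 30 genes in gated cells (with SE), C1q-high cells, B cells of the same rats and bulk CD45+ samples (with SE). AKR1B8 and CXCL3 lie lower in B cells than in gated cells, bulk values of both lie near 0 (0.30 and 0.00), and the MMP3 value of gated cells rests on 2 UMIs in TGFBRi rats.

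The bulk CD45+ samples, which the gate had not used, gave no called gene. With limma at an adjusted p of 0.05 or less, 0 of 13779 genes passed (0%), 501 had an unadjusted p under 0.05, edgeR on recovered reads called 0 and DESeq2 called 1. C1QA was present in every sample, at normalized values of 813 to 1929 in vehicle and 456 to 2186 in TGFBRi rats, and its log2 change was −0.26 (unadjusted p = 0.60). NQO1 differed by 0.40 ± 0.67, HMOX1 by 0.48 ± 0.59, CXCL3 by 0.00 ± 0.60 and FTH1 by −0.04 ± 0.33 (log2 of value + 1, SE, n = 4 per group). SPP1 differed by −0.92 ± 1.68 and FABP5 by −0.46 ± 0.29 on the same scale. A p that misses the threshold does not show that the groups were alike. Bulk samples hold all leukocytes, so that macrophages are a part of each value, and fewer cells of a type cannot be told apart from less RNA per cell. The redox list had 9 positive and 9 negative members of 18 tested, and its median was 0.04 against 0.12 over all genes.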

How the data were processed

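Whole-gland libraries were 10x 5′ libraries. Per the labels, the authors made the deposited UMI counts with Cell Ranger 7.0.0 on rn6 and filtered cells with Seurat 4.1.1. The deposited bulk values are a normalized signal (reads divided by a size factor). Steps between values gave whole reads in 100% of values (tolerance 0.05) and 7006140 to 19830700 reads per sample, with 1 sample's step close to 1 and so less certain.

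UMIs of gated cells were summed per rat (1639687 to 4210028) and compared by edgeR 4.0.16 (quasi-likelihood, TMM, genes with a summed count of 10 or more). Calls were made at 0.1 after Benjamini-Hochberg adjustment, as in the study's single-cell comparisons. SE came from the log2 change over the root of F. Bulk values were compared by limma 3.58.1 (trend, robust) on log2(value + 1) over genes summing to 10 or more, a scale that understates changes of low genes. The rat was a block in the test against B cells (CD79B, no gate, CD3E or CD3D UMI). Clusters came from Leiden (leidenalg 0.10.2, resolution 0.8, 20 neighbours, 30 components, 2000 variable genes). No doublets were removed in the reported fit. Scores were computed by Scrublet's method, written anew, and the 6% highest per library left out as an alternative. Library pairs shared 88 to 284 barcodes. Intervals cover counting error only. Fits were tested on simulated data.

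Members and lists were chosen with earlier results of these data known. Named genes were, per direction, the 12 largest changes among called genes with a mean of 20 or more UMIs per rat and no overlap, then list members, and in the test against B cells the 5 largest per direction. C1q-high cells were defined after the data were seen. Motifs were chosen after the lists' changes were seen. TYROBP and CD163 values pool cells of a group. Some results are not reported here. The following list genes were not used here since the tables held no row of that name: TNF, CCR2, VSIG4, TIMD4, MPEG1, ITGAM, CD36 and others.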

Additional observations from a re-analysis of the deposited data

Results flagged for a closer look

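Of 31 tests for a rat far from the rest of the TGFBRi group, a kind that chance passes about 1 time in 20, 2 passed. DAPK2, a kinase of cell death, reached 26.4 CPM in TGFBRi rat 1 against a group median of 10.7 CPM. That rat also had 25.2% of its gated cells among the highest doublet scores, against 6.78 to 11.5% in the other rats, and the part of doublets was not tested. MMP3 stood at 0.857 CPM (2 UMIs) in TGFBRi rat 2 and at 0 in the other 5.

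The treatment effect differed between gated cells and B cells, by the interaction term of edgeR, for 10 genes named by size. It was more negative in gated cells by 4.11 on the log2 scale for MMP3 (−4.11, a fitted value that rests on few UMIs), and the difference was −1.67 for TMBIM1, −1.46 for OTUD1, −1.42 for GPSM1 and −1.36 for RNF34. It was more positive in gated cells by 3.35 for AKR1B8, 2.91 for MAL, 2.46 for CXCL3, 2.41 for GJB2 and 2.32 for ADORA2A. Adjusted p lay between 5.5e-04 for AKR1B8 and 0.050 for MAL.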

How the results depend on the processing

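The count of 1277 called genes became 75 in the 637 cells without UMIs of the lists of other cell types. It was 445 in C1q-high cells and 8 with the replicate block (rats 1, 2 and 4 of both groups). It ranged from 732 to 2248 when 1 rat was left out, being 732 without vehicle rat 2, 2248 without vehicle rat 4 and 833 without TGFBRi rat 14. Deviations of same-numbered rats correlated by −0.0587, −0.0854 and 0.205, the last being the highest of all pairs of a vehicle and a TGFBRi rat. So few values cannot show whether the rat numbers pair the rats. The count of 287 genes that differ from B cells became 138 in C1q-high cells and ranged from 95 (without vehicle rat 2) to 465 (without vehicle rat 4), with 179 without TGFBRi rat 1. DESeq2 called 1 gene in bulk, and leaving out any 1 bulk sample gave 0.

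The share difference of −0.0933 percentage points changed sign without cells with UMIs of other cell types (0.187) and with the replicate block (0.0168). It ranged from −0.923 to 1.29 with 1 rat left out. The G2/M difference changed sign when thinned to 2000 UMIs (−0.627) or not thinned (−0.299). Without vehicle rat 4 the LYVE1-type difference became 2.19 and the MHC class II difference −2.86, the upper and lower ends of ranges from −11.3 to 2.19 and from −2.86 to 6.50. With 2 vehicle rats the exact test cannot reach 0.05.

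Single genes changed sign (log2 change) as follows, and the cause was not tested. In C1q-high cells CD8A gave −0.74, MAL −0.31, ADORA2A −0.42 and NR4A1 −0.15. In the same cells without vehicle rat 4, CD8A gave −1.47, MAL −0.57, ADORA2A −0.84, IL1RL1 0.19, C3 −0.31, TNFAIP3 −0.13, CXCL14 0.11, TIMP2 0.21, TIMP3 0.41, CD1D1 −0.010 and HBB 3.30. In cells without C1q, ADGRE1 gave 0.14, CCL4 0.37, IFIT2 0.30, IFIT3 0.56 and ADAM8 −0.022. In the same cells without vehicle rat 4, ADGRE1 gave 0.39, TREM2 1.27, CCL4 1.70, IFIT2 0.37, IFIT3 0.048, RSAD2 0.45, MT1 −0.059, TFRC 0.19 and HBB 2.08. Without cells with UMIs of other types, RT1-DOA gave −0.79, HPGD 1.67, SCARB2 0.012, AREG 0.022, CSF1 0.70, MMP19 4.44, MCM3 −0.53 and HBB 4.94. With 1 rat left out HBB ranged from −4.60 to 1.26, the latter without vehicle rat 4.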

Other observations

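Genes of the dissociation stress list moved both ways in the gated cells, with 4 raised (FOS, FOSB, DUSP1 and NR4A1) and 4 lowered (ATF3, HSP90AA1, HSPH1 and IER3) of 24 tested. Of 14 tested dendritic cell genes FLT3, BATF3 and CD1D1 rose, and 67.1% of FLT3 UMIs lay in cluster 9. Without vehicle rat 4, 1 of the 14 was called, the calls of BATF3 and CD1D1 being lost, as they also were in C1q-high cells and in cells without C1q.

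Of 19 tested S phase genes 4 rose (MCM3, MCM5, MCM6 and RRM1, by 0.81 to 1.00 on the log2 scale), and 7 rose without vehicle rat 4. These 4 calls were lost in C1q-high cells and in cells without C1q. The summed list stood at 333, 279 and 810 CPM in vehicle rats 1, 2 and 4 and 447 to 538 CPM in TGFBRi rats, so that vehicle rat 4 was above all others. Of 25 tested secreted factors 6 fell, with AREG, CSF1, CXCL14, EREG and VEGFB beside GDF15, by 0.93 to 1.63 for these 5 on the log2 scale. Further list members that fell were MMP9, MMP13, MMP14, MMP19, PLAU, TIMP2 and TIMP3 of the matrix list (0.56 to 2.54), IFIH1, IFIT2 and IFITM3 of the interferon list (0.82 to 1.22), TFRC and TXN1 of the redox list, MSR1 and SCARB2, scavenger receptors, ALDOA of glycolysis, and KRT7, SDC1 and IL7R, which mark other cell types. PFKL of glycolysis and the B cell gene BLK rose.

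Among small clusters, 56 cells with a median of 129.5 C1q UMIs were led by CLEC4M, CD209 and RNASE2 and also held SIGLEC1 among their 10 leading genes. A further 51 cells were led by IFNB1, RSAD2 and CXCL11, and 78 cells by the cell cycle genes PCLAF, TOP2A and MKI67. Of the 51, 3, 21 and 13 came from vehicle rats 1, 2 and 4, and 0 to 6 from each TGFBRi rat.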
